A study of Homo sapiens with 15 samples.

Results

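Wild type MOAP-1 tumors were compared with RASSF1A tumors, 3 against 3 of the 15 tumors in the series. The members were taken by their sample labels, as the 3 tumors labelled MOAP-1 and the 3 labelled 1A, the pCDNA3 construct of HA-tagged RASSF1A. All tumors were xenografts of HCT116, a human colon cancer cell line with its own MOAP-1 and RASSF1A genes, grown under the skin of athymic nude mice and excised at day 35. Cells were pools transfected transiently before injection with Myc-tagged wild type MOAP-1, with RASSF1A, with empty vector (3 tumors, used here as background), or with 1 of 2 MOAP-1 mutants that entered only the estimate of spread. A nude mouse lacks T cells but keeps its fibroblasts, vessels and other leukocytes, and the excised tissue holds both species on a human array. RNA of each tumor was hybridized in a single color to 1 Agilent human expression array, and levels are given as log2 signal relative to the 75th percentile of the array.

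MOAP-1 (modulator of apoptosis 1) is a BAX-binding protein held in a closed form in resting cells. RASSF1A is a tumor suppressor scaffold without enzyme activity that binds microtubules and Hippo kinases, and that is often silenced by promoter methylation in cancer. After death receptor stimulation RASSF1A binds MOAP-1 and opens it, and MOAP-1 then engages BAX at the mitochondrion, so both proteins lie on 1 route to cell death. The comparison asks how tumors given the downstream member of that route differed in transcript levels from tumors given the upstream member.

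On these 6 arrays 88.6% to 90.8% of spots were well above background and no spot was saturated. Colon epithelial markers were high in every tumor, with KRT19 between 7.08 and 7.42 and EPCAM between 4.39 and 4.85, whereas VIL1 was low (-4.01 to -2.97), and none of these was called different. Slide 1 carried MOAP-1 tumors 1 and 3, and slide 2 carried tumor 2, RASSF1A tumor 3 shared slide 4 with the vector tumors, and RASSF1A tumors 1 and 2 were on slide 5, which was scanned on a later day. Images of all MOAP-1 arrays were extracted in one run of the scanner software and images of all RASSF1A and vector arrays in another. Extraction run and construct therefore cannot be told apart in any value below. RASSF1A tumor 3 was the RASSF1A tumor nearest to the MOAP-1 tumors for 3076 of 3978 probes called higher in MOAP-1 (77.3%) and for 1447 of 2495 called lower (58.0%).

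The 1 probe for MOAP1 (chromosome 14) read 0.34, 0.71, and 0.71 in MOAP-1 tumors against -0.48, -0.52, and -0.23 in RASSF1A tumors. All MOAP-1 tumors lay above all RASSF1A tumors, and the vector tumors (-0.18, -0.53, and -0.13) also lay below all MOAP-1 tumors. The difference was 0.99 on the log2 scale (SE 0.14, 1.99-fold, limma adjusted p = 0.000177). The 1 probe for RASSF1 (chromosome 3) read 1.85, 1.76, and 1.79 in MOAP-1 tumors and 1.56, 1.55, and 1.59 in RASSF1A tumors. The RASSF1 signal was thus not higher in the tumors given RASSF1A, where the difference of 0.24 (SE 0.10, limma adjusted p = 0.0934) was positive toward MOAP-1. Where these probes lie relative to the introduced cDNAs is not given in the sources used here, so the tumors are called RASSF1A only as their labels call them.

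**Figure D1:**
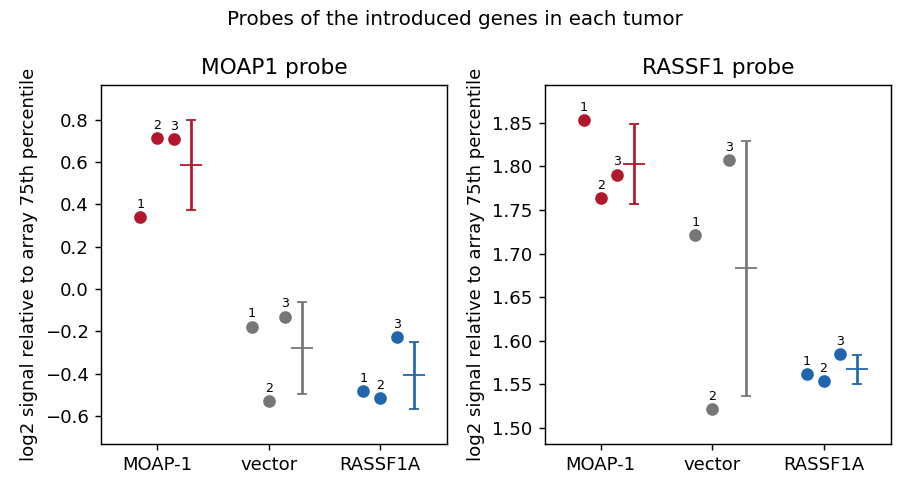
Log2 signal of the MOAP1 and RASSF1 probes, relative to the 75th percentile of each array, in MOAP-1, vector, and RASSF1A tumors (numbered points, 3 each), with the mean and SD beside them. MOAP1 is higher in the 3 MOAP-1 tumors (0.34 to 0.71) than in the RASSF1A tumors (-0.52 to -0.23), and RASSF1 is not higher in the RASSF1A tumors (1.55 to 1.59 against 1.76 to 1.85).

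A gene was called when the limma adjusted p of any of its probes was below 0.05 and the difference reached 1.5-fold. Of 24778 genes tested, 6077 (24.5%) were called, 3761 (15.2%) higher in MOAP-1 tumors and 2406 (9.71%) lower, with 90 genes in both sets through different probes. With arrays scaled to their median 3010 were higher and 3701 lower (44.9% of the sum higher in place of 61.0%), a setting that shifted the median of all probes by -0.12. RASSF1A tumors 1 and 2 were the only tumors scanned on the later day. Scan day as a block therefore set MOAP-1 tumors against the lone RASSF1A tumor of the earlier day, as did leaving out tumors 1 and 2. Calls given below for either setting rest on that lone tumor, so these settings are not separate checks. Groups did not overlap for 51.6% of all probes and for 97.5% of those called, which were 21.4% of all probes. At the brightest probe of each gene, MOAP-1 tumors lay wholly above RASSF1A tumors for 22.4% of genes and wholly below for 28.4%. Where a called gene had further probes, these followed the brightest probe only in part. Of 940 other probes of 771 such genes, 224 (23.8%) were called the same way and 79 the opposite way. Gene lists are therefore described below at the brightest probe of each gene, for which 11.4% of all genes were called higher in MOAP-1 tumors, 8.74% were called lower (20.1% together), and the median difference was -0.04.

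The largest rises in MOAP-1 tumors were of mixed function and included SRF, LDHA, and SLC2A3. SRF, the transcription factor of serum response elements, read -1.77, -1.63, and -1.85 in MOAP-1 tumors and -5.89, -5.90, and -4.16 in RASSF1A tumors. It was 3.56 higher on the log2 scale (SE 0.43, limma adjusted p = 6.6e-05), with vector tumors between (-3.87, -5.00, and -3.25). A second probe of LDHA, the lactate dehydrogenase A subunit, read 3.42, 3.35, and 2.99 against 0.22, -0.36, and 0.10. SLC2A3, the glucose transporter GLUT3, differed by 2.81 at its brightest probe (SE 0.23, limma adjusted p = 3.53e-05) and by 2.65 at the other. The interferon-inducible ligase HERC6 rose by 2.99 and ARFGEF3 by 2.73, although the other probe of HERC6 (0.51) and those of ARFGEF3 (0.47 and 0.11) were not called.

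TCP1, a subunit of the CCT chaperonin, and BRK1, a subunit of the WAVE actin nucleation complex, rose by 2.82 and 2.68 at 1 probe each. Their other probes read the opposite way, with differences of -0.34 for TCP1 and -0.40 for BRK1. For TMEM71, SAA4, LDHAL6B, and TAGLN the MOAP-1 tumors were far apart, and tumor 1 was the lowest of the 3 each time. It was also the MOAP-1 tumor with the least COL1A1, a fibroblast gene given below, and the part of host cells in these 4 rises was not tested. TMEM71 read -0.82, 4.49, and 4.16 in MOAP-1 tumors against -1.57, -1.24, and -1.48, and its other probe did not rise (-0.35). TAGLN, an actin-binding protein of smooth muscle and myofibroblasts, read -2.34, 0.24, and -0.93 against -4.11, -4.15, and -3.20, and its brighter probe differed by 0.07.

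The largest falls in MOAP-1 tumors were led by IQSEC3, an exchange factor for ARF GTPases. It read -4.22, -4.40, and -3.58 in MOAP-1 tumors and 0.62, 1.13, and -0.60 in RASSF1A tumors, a difference of -4.45 (SE 0.38, limma adjusted p = 3.53e-05). Its other probe also fell (-1.31), and vector tumors lay between the groups (-1.62, -1.98, and -2.50). The NADPH oxidase subunit NCF1 differed by -3.45, with its 3 other probes at -1.09, -0.27, and -0.11, and NUB1, which lowers NEDD8 conjugates, by -3.44. EBF2, a transcription factor of brown adipocyte precursors, differed by -3.12. GUCY2C, the guanylate cyclase receptor of intestinal epithelium, differed by -2.85. DCANP1 (-3.40) and MROH5 (-3.14) had 1 probe each.

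Single probes also carried the falls of NCAPH2, a condensin II subunit (-3.18, other probes -0.28 and -0.49), of the MEF2 coactivator MAMSTR (-3.05, other -0.02), of LOC100507547 (-2.86, others -0.56 and 0.03), and of FAM222B (-2.77, other -0.01). Probes not well above background in any tumor of one group gave lower bounds. RSU1, a focal adhesion protein, was at least 4.07-fold higher in MOAP-1 tumors (limma adjusted p = 0.00177), followed by GPX3 (at least 3.70-fold), PALM2AKAP2 (at least 3.69-fold), and EPB41 (at least 3.46-fold). In the other direction PCDH15 was at least 7.69-fold lower in MOAP-1 tumors, although RASSF1A tumor 3 (-6.91) lay far below tumors 1 and 2 (-2.52 and -2.54). CEACAM7 (at least 2.11-fold), MRO (at least 2.05-fold), and ABRA (at least 1.98-fold) were lower as well.

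**Figure D2:**
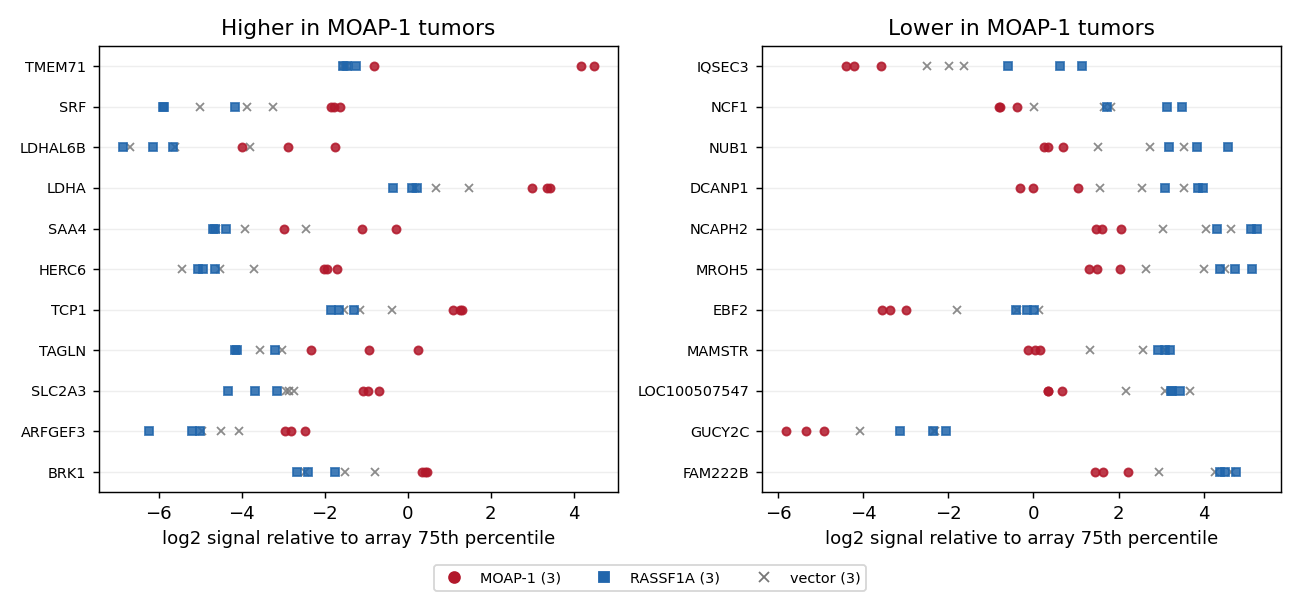
Log2 signal relative to the array 75th percentile in each MOAP-1 (circles), RASSF1A (squares), and vector (crosses) tumor for 11 of the 12 largest rises and 11 of the 12 largest falls. The groups do not overlap for any of these genes, as the selection required, and MOAP-1 tumor 1 sits apart for TMEM71 at -0.82.

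Binding partners and regulators of MOAP-1 and RASSF1A were examined next. Of 24 such genes 8 (33.3%) were higher in MOAP-1 tumors, MOAP1 itself included, and 2 (8.33%) lower, beside 11.4% and 8.74% of all genes, and their median difference was 0.30. AURKB, a mitotic kinase that phosphorylates RASSF1A, read -1.82, -1.83, and -1.79 in MOAP-1 tumors and -4.05, -3.23, and -2.85 in RASSF1A tumors (difference 1.56, SE 0.24, limma adjusted p = 0.000317). The related kinase AURKA rose by 0.89 and CDC20, an activator of the anaphase-promoting complex that RASSF1A binds, by 0.76. Among partners of MOAP-1, BCL2 rose by 0.89 at its brightest probe (-0.22 at the other), and BCL2L1 (BCL-XL) by 0.67. RASSF6, a relative of RASSF1A that also binds MOAP-1, rose by 0.62. TRIM39, a ligase that stabilizes MOAP-1, fell by 0.78. MAP1S, the microtubule-associated protein that binds RASSF1A, read 3.47, 3.54, and 3.67 in MOAP-1 tumors and 5.17, 5.07, and 4.87 in RASSF1A tumors, a fall of 1.47 (SE 0.17, limma adjusted p = 4.99e-05). With scan day as a block the counts were 5 higher and 1 lower.

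In the intrinsic apoptosis list, which holds the BCL2 family, the apoptosome, and effector caspases, 8 of 32 genes (25%) were higher in MOAP-1 tumors and 3 (9.38%) lower, with a median of 0.14. These shares stand beside 11.4% and 8.74% of all genes. Both guardians and killers were in the higher set. MCL1, a guardian with a short half-life, read 0.08, 0.03, and -0.22 in MOAP-1 tumors and -2.24, -2.94, and -1.99 in RASSF1A tumors, a difference of 2.36 (SE 0.28, limma adjusted p = 6e-05). The pore former BAK1 rose by 1.03, the apoptosome scaffold APAF1 by 0.98, CASP6 by 1.11, the mitochondrial protease HTRA2 by 1.00, and the BH3-only gene BMF by 0.96. BAX, the partner that MOAP-1 activates, read 1.23, 1.48, and 1.69 against 0.85, 1.15, and 0.81, a difference of 0.53 (limma adjusted p = 0.0122) that did not reach 1.5-fold. DFFA, the inhibitor of the caspase-activated nuclease, fell by 1.12, and the BH3-only genes BCL2L11 (BIM) and BBC3 (PUMA) by 0.72 and 0.65, of which neither was called under quantile normalization. The other probes of BCL2L11 differed by 0.20 and -0.38.

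For death receptors, their ligands, and adaptors, 2 of 18 genes were higher (11.1%) and 0 lower. The higher share was near that of all genes (11.4%), of which 8.74% were called lower. CASP8, the initiator caspase of that route, read -0.91, -0.95, and -1.10 against -2.22, -2.25, and -1.98, a difference of 1.16 (SE 0.21, limma adjusted p = 0.000927). CFLAR, which competes with it at the receptor, rose by 0.60 at its brightest probe and by 2.52 at another. Without the RASSF1A tumors of the later scan day 0 of the 18 were called at the brightest probe.

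Hippo genes were examined because RASSF1A binds the kinases of that pathway, which restrain the coactivators YAP and TAZ. Of 24 measured genes 4 (16.7%) were higher in MOAP-1 tumors and 1 (4.17%) lower, with a median of 0.02. Over all genes 11.4% were called higher and 8.74% lower (20.1% together). MOB1B, the adaptor of the LATS kinases, read 0.45, 0.58, and 0.67 in MOAP-1 tumors and 2.45, 2.46, and 2.03 in RASSF1A tumors, a fall of 1.75 (SE 0.25, limma adjusted p = 0.000157), with its other probes at -0.70 and -0.27. VGLL4, a repressor that competes for TEAD factors, rose by 1.58 (SE 0.22, limma adjusted p = 0.000144), and its other probe differed by 0.41. The junctional scaffold AMOT (0.87), the target CCN2 (0.72), and WWTR1, which encodes TAZ (0.62), were also called higher, and with scan day as a block only VGLL4 and MOB1B were called. In the RASSF family RASSF7 (0.85), RASSF4 (0.81), and RASSF6 (0.62) were 3 of 9 genes higher and 0 were lower, and with normexp background correction 0 were called.

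Of 19 tubulins 4 were higher (21.1%) and 2 lower, beside 11.4% and 8.74% of all genes. TUBG2, a gamma-tubulin of microtubule nucleation, rose by 1.22, followed by TUBA3C (0.97), TUBB4B (0.92), and TUBA1A (0.65). TUBA3D and TUBB2A fell by 0.85 and 0.59, the latter not called under quantile normalization. With scan day as a block only TUBG2 and TUBA3D among these were called. Without the later-scanned RASSF1A tumors TUBG2, TUBA3C, TUBB4B, and TUBA1A differed by 0.77, 0.52, 0.29, and 0.27, and TUBA3D and TUBB2A by -0.78 and -0.48. Tubulin genes are close in sequence, and how far their probes cross-hybridize was not tested. Of 30 microtubule-associated genes 2 were called, MAP1S and, in the other direction, MAP1B (1.22), beside 20.1% of all genes.

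Hypoxia response genes, which are induced through the HIF factors when oxygen is short, were examined as a list. Of 25 genes 11 (44.0%) were higher in MOAP-1 tumors and 0 lower, beside 11.4% and 8.74% of all genes, and the median difference was 0.59. SLC2A3 read -0.97, -0.70, and -1.07 in MOAP-1 tumors and -3.69, -4.33, and -3.15 in RASSF1A tumors, and its vector values (-2.93, -2.75, and -2.87) lay near the latter. The neuronal enolase ENO2 read 0.68, 0.29, and -0.15 against -2.16, -2.79, and -1.48 (difference 2.42, SE 0.31, limma adjusted p = 8.65e-05). The carbonic anhydrase CA12 read -5.20, -5.15, and -4.68 against -7.58, -9.07, and -6.62 (difference 2.75, SE 0.67, limma adjusted p = 0.00584), but was well above background in 1 RASSF1A tumor only. In all 3 genes the groups were fully apart, as in 12 of the 25, all toward higher values in MOAP-1 tumors. Over all genes, MOAP-1 tumors lay wholly above RASSF1A tumors for 22.4% and wholly below for 28.4%.

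VEGFA, the main angiogenic ligand, read 0.67, 0.79, and 0.32 in MOAP-1 tumors and 0.28, -0.45, and -1.33 in RASSF1A tumors, and its other probe differed by -0.21. DDIT4, an inhibitor of mTORC1, read 4.92, 4.79, and 4.51 against 3.81, 3.13, and 4.09 (difference 1.06, SE 0.22, limma adjusted p = 0.00188). NDRG1 (0.99), PFKFB4 (0.93), CA9 (0.87), INSIG2 (0.84), MXI1 (0.79), and HK2 (0.59, and 1.04 at its other probe) made up the rest of the called genes. Other classical members were not called. SLC2A1 (GLUT1) differed by 0.31, BNIP3 by 0.17, and ADM by 0.16, with limma adjusted p of 0.117, 0.507, and 0.654, and LOX read higher only in MOAP-1 tumors 2 and 3 (-2.73 and -3.38, against -4.44 in tumor 1). The summed signal of the 25 genes was 123 to 172 times the array 75th percentile in MOAP-1 tumors and 75.2 to 123 in RASSF1A tumors. No alternative called a member lower, but 3 were called with scan day as a block (SLC2A3, ENO2, and VEGFA), and 2 with the t-test of the methods after adjustment.

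HIF factors recognize a short core, and the promoters of the called genes are shown for the 3 with the largest fitted differences among those with a RefSeq entry, that of CA12 resting on RASSF1A values mostly not well above background. Each line gives the 250 bases upstream of the start site (GRCh38.p14), 5′ to 3′ on the strand of the gene, with every ACGTG or GCGTG on either strand in capitals (CACGT and CACGC when read from the other strand, ACGTG and CACGT overlapping in CACGTG).
CA12, chr15:63381847-63382096, minus strand: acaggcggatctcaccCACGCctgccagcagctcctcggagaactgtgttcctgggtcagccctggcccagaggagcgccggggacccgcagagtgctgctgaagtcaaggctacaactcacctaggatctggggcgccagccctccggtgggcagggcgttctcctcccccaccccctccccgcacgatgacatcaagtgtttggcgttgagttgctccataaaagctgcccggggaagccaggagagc
ENO2, chr12:6914330-6914579, plus strand: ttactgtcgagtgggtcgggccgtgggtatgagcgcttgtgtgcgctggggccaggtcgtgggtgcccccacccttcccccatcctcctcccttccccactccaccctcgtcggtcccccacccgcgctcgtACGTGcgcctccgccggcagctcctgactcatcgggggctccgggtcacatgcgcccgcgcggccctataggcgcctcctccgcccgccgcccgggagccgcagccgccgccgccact
DDIT4, chr10:72273674-72273923, plus strand: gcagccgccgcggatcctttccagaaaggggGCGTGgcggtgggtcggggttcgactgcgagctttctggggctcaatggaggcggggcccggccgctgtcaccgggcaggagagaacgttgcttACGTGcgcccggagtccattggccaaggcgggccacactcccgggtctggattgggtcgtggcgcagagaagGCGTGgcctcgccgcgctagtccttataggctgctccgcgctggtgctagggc
Of these, CA12 and ENO2 held 1 match each and DDIT4 held 3. Over the list, 16 of 21 genes with an entry (76.2%) held at least 1 match, 7 of them among the 8 called genes with an entry, beside 43.1% of 27305 promoters of all genes. SLC2A3, VEGFA, and NDRG1 had no entry. A match is a run of letters in this window and says nothing of binding.

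Glycolysis genes, several of which are also HIF targets, were split. Of 21 genes 7 (33.3%) were higher in MOAP-1 tumors and 1 (4.76%) lower, beside 11.4% and 8.74% of all genes, and the median was -0.02. GAPDH read 6.58, 6.39, and 6.31 against 4.54, 4.59, and 5.73, a difference of 1.48 (SE 0.28, limma adjusted p = 0.00111). ENO1 read 4.05, 3.97, and 3.87 against 0.86, 1.75, and 2.95, a difference of 2.11 (SE 0.37, limma adjusted p = 0.000761). In both genes RASSF1A tumor 3 lay nearest to the MOAP-1 tumors, as it did for PKM (2.64, 2.52, and 3.66 in RASSF1A tumors, difference 1.45). LDHA at its brightest probe rose by 1.26 and HK1 by 1.22, both also without the later-scanned tumors, where GAPDH and PKM were not called.

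PFKL, the liver-type phosphofructokinase, went the other way and read 2.07, 1.77, and 2.33 in MOAP-1 tumors and 4.92, 4.93, and 4.48 in RASSF1A tumors, a fall of 2.72 (SE 0.31, limma adjusted p = 4.73e-05). PGK1 (-0.08), TPI1 (-0.03), and LDHB (-0.14) were among the 13 genes not called, although a second LDHB probe rose by 1.22. Under quantile normalization the list median was 0.31, with the same counts of calls.

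**Figure D3:**
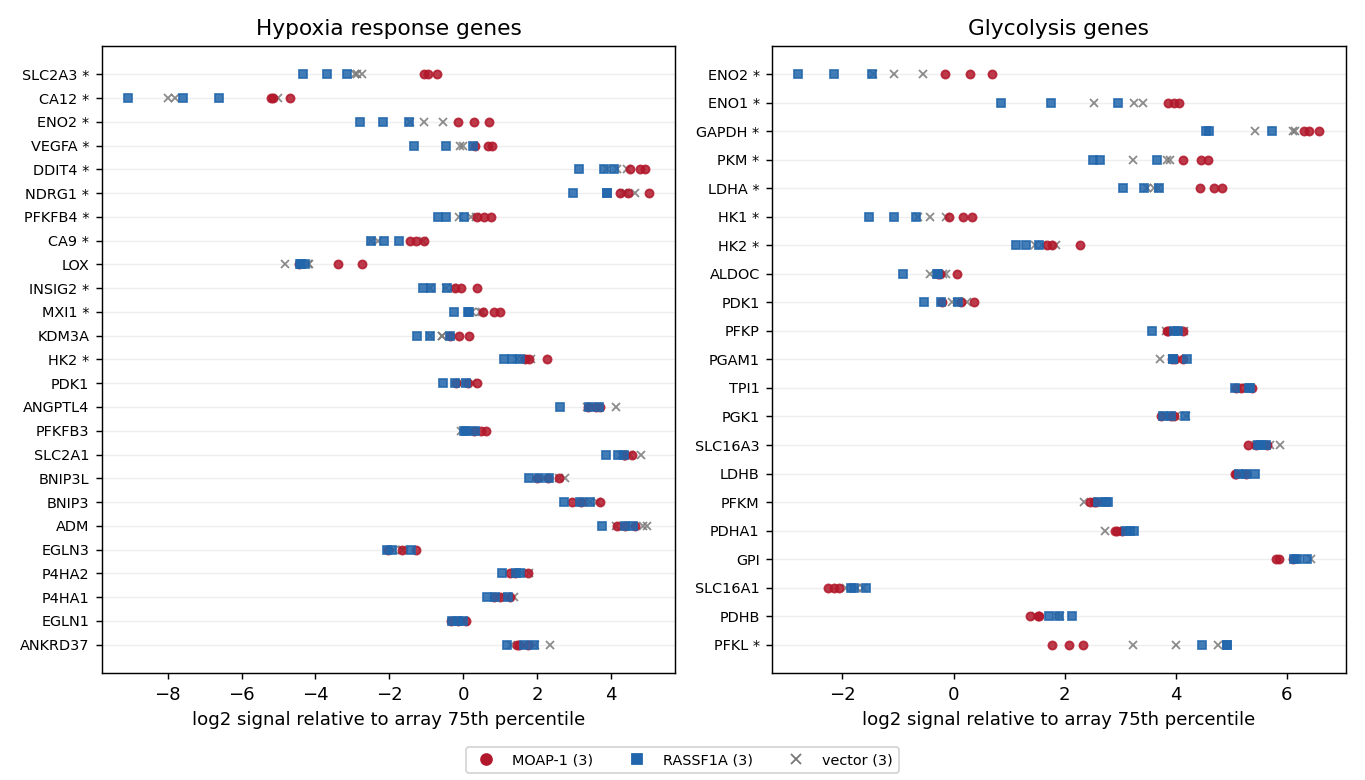
Log2 signal relative to the array 75th percentile in each MOAP-1 (circles), RASSF1A (squares), and vector (crosses) tumor for the 25 hypoxia response genes and 21 glycolysis genes, at the brightest probe and sorted by difference, with called genes starred. SLC2A3 and ENO2 are higher in all 3 MOAP-1 tumors than in any RASSF1A tumor, and PFKL is the only starred gene that is lower in MOAP-1 tumors.

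Respiratory chain and ribosomal protein genes are among the brightest on the array (39 of 51 and 74 of 75 in the brightest of 10 equal bins of probes), and brightness itself moved with the comparison. The median difference was 0.10 in bin 3 by mean signal and -0.27 in the brightest, bin 10, where 20.4% of probes were called lower and 6.52% higher. Under quantile normalization these medians were -0.06 and 0.00. At the brightest probe of each gene 11.4% of all genes were called higher and 8.74% lower, and the ribosomal protein shares below were near these. Of 51 respiratory chain genes 10 (19.6%) were higher and 6 (11.8%) lower, with a median of -0.34, and under quantile normalization 12 were higher, 0 lower, and the median was -0.06. With arrays scaled to their median 8 were higher and 15 lower, with a median of -0.46. Of 75 ribosomal protein genes 9 (12%) were higher and 6 (8%) lower, with a median of -0.25 that changed sign to 0.06 under quantile normalization, where 11 were higher and 0 lower, and with median scaling 6 were higher and 12 lower.

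Single subunits stood far from the rest of their complexes. NDUFA9 of complex I rose by 2.66 and the ATP synthase beta subunit ATP5F1B by 1.76, whereas NDUFB3 fell by 0.71. RPS3 read 4.26, 4.07, and 4.08 against 0.77, 0.92, and 2.72, a difference of 2.67 (SE 0.43, limma adjusted p = 0.000397), again with RASSF1A tumor 3 nearest, and RPL29 rose by 1.12 and RPS26 fell by 0.71.

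**Figure D4:**
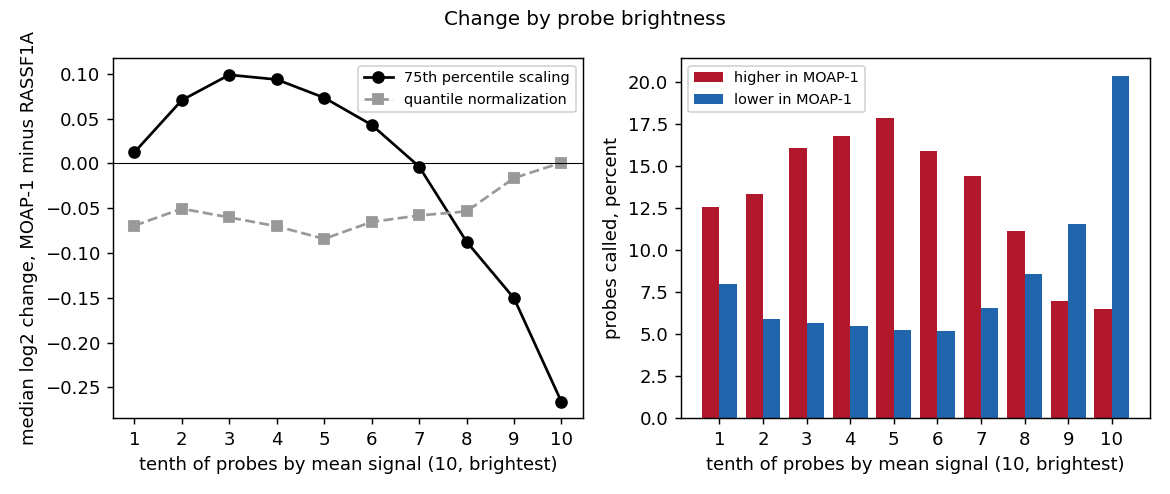
Median log2 difference (MOAP-1 minus RASSF1A) and percentage of probes called in each of 10 equal bins of probes by mean signal, under 75th percentile scaling and, for the median, quantile normalization. The median in the brightest bin is -0.27 under the first and 0.00 under the second, and 20.4% of the brightest probes were called lower.

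Proteasome subunits and splicing factors were read beside the 11.4% of all genes called higher and the 8.74% called lower. Proteasome subunits were higher at 10 of 34 genes (29.4%) and lower at 1 (2.94%), with a median of 0.21. The 3 largest rises were in the regulatory particle. The ATPase PSMC5 read 1.00, 0.92, and 0.97 in MOAP-1 tumors and -2.37, -1.83, and -0.62 in RASSF1A tumors, a difference of 2.57 (SE 0.36, limma adjusted p = 0.000153), and PSMD13 (2.28) and PSMC3 (2.27) followed. PSMB5, which carries the chymotrypsin-like site of the core, rose by 1.47. Of the immunoproteasome subunits PSMB9 rose by 1.17 and PSMB10 fell by 0.61, and PSMB8 differed by 0.55 without reaching 1.5-fold. With scan day as a block 5 were higher and 0 lower. Of 36 splicing factors 9 were higher (25%), SF3B2 by 1.26 and SNRPB by 1.12 among them, and 3 lower, of which SF3A2 fell by 1.05.

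DNA replication, mitosis, and repair lists were read beside the 11.4% of all genes called higher in MOAP-1 tumors and the 8.74% called lower. RRM2, the regulated subunit of ribonucleotide reductase, read 2.15, 2.07, and 2.01 against 0.34, -0.03, and 0.29, a difference of 1.87 (SE 0.20, limma adjusted p = 3.72e-05). With RFC2 (1.44), POLA2 (1.36), POLD2 (1.22), and ORC6 (1.21) it was 1 of 9 of 47 replication genes called higher (19.1%), beside 2 lower (RPA3, -0.76, and POLD1, -0.69), and with scan day as a block 2 were higher. Of 35 mitosis genes 7 (20%) were higher and 1 (BUB3, -0.73) lower. TOP2A, which disentangles sister chromatids, read -0.58, -0.70, and -0.81 against -2.24, -2.67, and -2.35, a difference of 1.72 (SE 0.26, limma adjusted p = 0.000275), and the mitotic kinesin KIF20A rose by 1.37 and the AURKA activator TPX2 by 0.99. The mitosis median was nevertheless -0.09.

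In end joining, the direct ligation of broken DNA ends, 4 of 15 genes (26.7%) were higher and 0 lower, with a median of 0.29. PRKDC, the catalytic subunit of DNA-PK, read 0.57, 0.44, and 0.43 in MOAP-1 tumors and -1.35, -1.44, and -1.14 in RASSF1A tumors, a difference of 1.79 (SE 0.29, limma adjusted p = 0.000471), and its other probe rose by 2.24. Its partner XRCC5 (Ku80) read 2.11, 2.22, and 2.15 against 1.23, 1.32, and 1.26, a difference of 0.89, and NHEJ1 rose by 1.35 and PARP3 by 1.89. The groups did not overlap for any of these 4, which was so for 97.5% of all called probes and 51.6% of all probes. XRCC6 (Ku70), also on the list, went the other way. It read 5.47, 5.41, and 5.38 against 5.93, 6.06, and 5.90, again without overlap. The difference of -0.54 (limma adjusted p = 0.00191) did not reach 1.5-fold. In the ATM and ATR checkpoint list 3 of 21 (14.3%) were higher and 1 lower, led by CDC14B (1.59), with 3 higher and 3 lower under quantile normalization and 0 called with normexp background correction. In homologous recombination and Fanconi genes 2 of 28 (7.14%) were higher (FANCB, 0.99, and BARD1, 0.81), and 0 with normexp background correction. Of 21 G1 to S genes 3 were higher, with CCND1 (cyclin D1) at 1.23, and 2 lower.

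For signaling lists the shares of all genes to compare with are again 11.4% called higher in MOAP-1 tumors and 8.74% called lower. In the JAK and STAT list STAT3 read -0.97, -1.24, and -1.51 against -3.49, -3.51, and -2.37, a difference of 1.88 (SE 0.32, limma adjusted p = 0.000593). JAK1 rose by 1.67 and TYK2 by 1.30, the shared receptor chain IL6ST fell by 0.84, and these were the 4 of 17 genes called. Of 27 immediate early genes 5 were higher (18.5%) and 0 lower, SRF the first, then PHLDA1 (1.62) and FOS (1.11). Of 23 TGF-beta genes 6 were higher, SMAD2 by 1.51 and TGFB3 by 0.97, and 2 lower, SMAD1 by 0.90, and with normexp background correction 0 were higher and 1 lower. Of 29 interferon-stimulated genes 5 were higher, IFIT3 by 2.05 and OAS1 by 1.39, and 0 lower. With scan day as a block 0 of them were higher. ERBB signaling gave 3 higher and 2 lower of 14, with the ligand HBEGF at 1.69 and the receptor ERBB4 at -0.95.

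Stress and metabolic lists were read beside the same shares of all genes. Of 26 autophagy and lysosome genes 8 (30.8%) were higher, ATG14 by 1.76 and GABARAP by 1.75, and 4 (15.4%) lower. Among the lower genes the protease ATG4B read -0.20, -0.10, and 0.01 in MOAP-1 tumors and 2.38, 2.04, and 1.55 in RASSF1A tumors, a fall of 2.08 (SE 0.24, limma adjusted p = 5.36e-05). Endoplasmic reticulum and integrated stress genes were higher at 6 of 27, PDIA6 by 2.30 and DDIT3 (CHOP) by 1.73, and lower at VLDLR (-1.12). Cholesterol synthesis was higher at 4 of 25 genes, MSMO1 by 1.96, and lower at 0. NF-kappaB and TNF genes gave 3 of 20 higher and 1 lower, the chemokines CXCL3 (1.73) and CXCL2 (-0.96) in opposite directions.

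The remaining lists of tumor cell genes stand beside 11.4% of all genes called higher in MOAP-1 tumors and 8.74% called lower. Wnt targets gave 1 of 15 (PROM1, 1.28), ribosome biogenesis 2 of 27 higher and 1 lower, integrins and laminins 3 of 20 higher with ITGA3 at 0.99, and epithelial identity 3 of 23 higher with the factor ELF3 at 1.81 and the tight junction gene CLDN7 at 0.95.

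**Figure D5:**
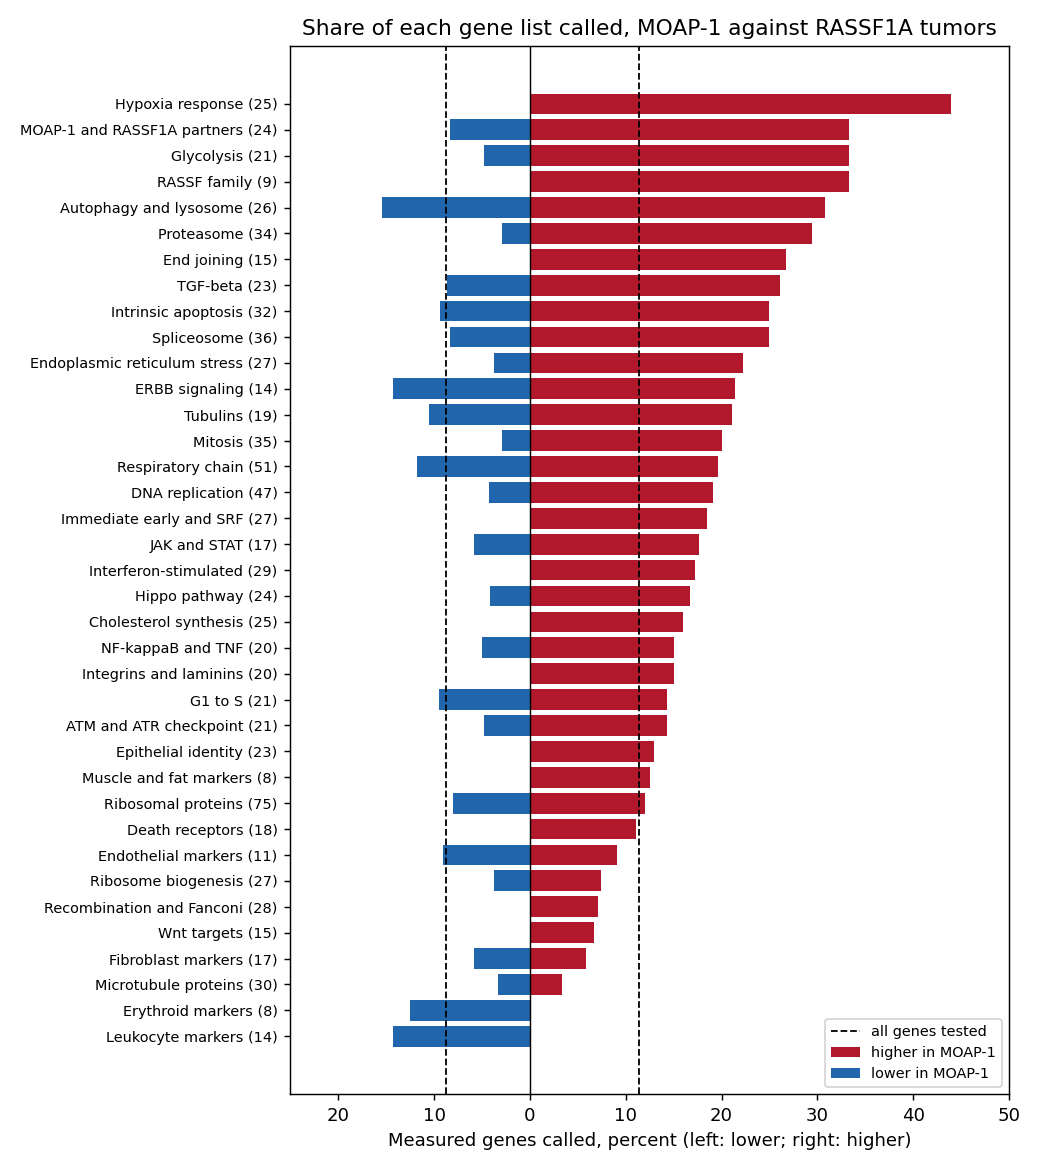
Percentage of the measured genes of each of 37 lists called higher (right) or lower (left) in MOAP-1 tumors at the brightest probe, with the number measured in brackets and the shares of all genes tested as dashed lines (11.4% and 8.74%). Hypoxia response genes reach 44.0% higher with 0 lower, and leukocyte markers show calls only on the lower side.

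Markers of host cells also moved between tumors, and their part in the differences above was not tested. In bulk tissue fewer cells of a type and less RNA per cell cannot be told apart. Over all genes 11.4% were called higher in MOAP-1 tumors and 8.74% lower. Of 17 fibroblast markers 1 was higher (COL6A2, 1.09) and 1 lower (COL5A1, -2.24, whose other probe rose by 2.25), and the MOAP-1 tumors differed among themselves. COL1A1 read 1.99, 4.74, and 4.30 in MOAP-1 tumors and 2.90, 2.49, and 2.27 in RASSF1A tumors, and the summed fibroblast signal ran from 31.0 to 72.3 in the former and from 47.5 to 55.7 in the latter. MOAP-1 tumor 1 was thus below every RASSF1A tumor for COL1A1 and tumors 2 and 3 above, and without it 6 fibroblast genes were higher. LUM, POSTN, and COL6A3 were not well above background in any of the 6 tumors.

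Leukocyte markers were lower at 2 of 14 genes and higher at 0. These and the further host cell counts stand beside 8.74% of all genes called lower and 11.4% called higher. TYROBP, an adaptor of myeloid and NK cell receptors, read 0.58, 0.61, and 1.02 in MOAP-1 tumors and 3.12, 2.79, and 2.78 in RASSF1A tumors, a fall of 2.16 (SE 0.23, limma adjusted p = 4.05e-05), and NKG7 fell by 0.88. The summed signal was 42.9 to 50.8 against 60.8 to 70.3. Its brightest members, FCER1G (-0.35) and CD79A (-0.57), were not called. Nor were CD68 (0.35), ITGAM (-0.46), CSF1R (-0.25), and CD163 (-0.23). PTPRC (CD45) was higher in MOAP-1 tumors by 0.56 at its brightest probe, without being called, and differed by -0.27 at the next. S100A9 was not well above background in any of the 6. Endothelial markers gave TIE1 higher (2.44, well above background in 2 of 3 RASSF1A tumors) and FLT1 lower (-0.90, well above background in 1 of 3 MOAP-1 tumors) of 11, with PECAM1 at 0.26, and a summed signal of 3.76 to 4.34 against 3.89 to 4.36. MYH2, a myosin of skeletal muscle, differed widely between tumors. It read -1.99, 2.98, and -0.32 against -2.69, -3.87, and -3.82 in MOAP-1 tumors (limma adjusted p = 0.105), and 4.06 in vector tumor 1. The summed muscle and fat signal was 6.13 to 7.51 against 9.24 to 18.2, whereas MB (myoglobin), the 1 of 8 markers called, was higher in MOAP-1 tumors by 0.84 (limma adjusted p = 0.0131). Of 8 erythroid markers 1 was lower and 0 were higher, and the summed signal was 13.3 to 17.6 against 18.7 to 23.3.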

How the data were processed

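RNA from 15 HCT116 xenografts, 3 for each of 5 constructs, was hybridized to single-color Agilent arrays, 1 tumor per array. The authors deposited Agilent Feature Extraction output (version 10.5.1.1 per the file headers, 9.1 per the processing notes) with spot intensities, background-corrected but not normalized between arrays. They also deposited log2 values from GeneSpring, shifted to the 75th percentile and, as their values show, centered near the median of each probe. In that table the columns of 7 arrays followed another array of the same construct, so tumor numbers here are those of the scanner files, and this table entered 1 alternative fit.

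Processed signals were log2-transformed and set to 0 at the 75th percentile of each array (612.7 to 1022 on the 6 arrays). Control spots and spots marked as outliers were removed, and spots of a probe were averaged, giving 34127 probes. Probes had to be well above background in all 3 MOAP-1 or all 3 RASSF1A tumors (30218 kept, 29218 of them on all 6 arrays; 111 lacked a value on some array). RefSeq (GRCh38.p14) named 25422 probes (74.5%) by accession, and the others keep the accession of the file. All 15 arrays were fitted in limma 3.58.1 (R 4.3.3) with construct as sole factor and 10 residual degrees of freedom. Adjustment of p values was by Benjamini-Hochberg over all probes kept. The script was tested on simulated data. Arrays give no read depth, and precision is limited by how many tumors there were. The methods call the tumors independent, but cells were injected into both flanks and the animal of each tumor is not given in the sources used here, so p values measure the spread between tumors that may share a mouse. Because 3 against 3 tumors cannot give a permutation p below 0.1, single values rest on limma.

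Named genes were the 12 largest rises and 12 largest falls among probes well above background on all 6 arrays, called also under quantile normalization and without overlap, the 4 largest bounds each way, and up to 5 called members of a list, with all called partners, RASSF, and Hippo genes. Further called members, genes not called, and host cell markers given with values were chosen after their values were seen. A bound sets the mean of the bright group against, per array, the higher of the lowest signal well above background and the value of the probe. Some genes that these rules name are not reported here, but counts include them. The comparison and the lists were chosen with earlier results of these data known. Alternatives covered quantile and median scaling, normexp background (on median signals, since the files hold no mean signals), filters, array weights, slide, scan day, replicate number, the methods' t-test, and leaving out tumors.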

Additional observations from a re-analysis of the deposited data

How the results depend on the processing

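The count of genes called and the balance of directions depended on the processing. Against 6077 genes called (3761 higher in MOAP-1 tumors, 2406 lower), normexp background correction called 2180 (1087 and 1103) and, with spots of extreme background left out of its fit, 3621 (1966 higher). With scan day as a block 3182 were called (1697 and 1500), and without the RASSF1A tumors of the later scan day 3061 (1650 and 1424), where the lone RASSF1A tumor is assumed to vary like the other groups. The methods' t-test called 4001 after adjustment (2212 higher) and 5764 before it. Scaling to the array median called 3701 lower beside 3010 higher, so that 44.9% of calls were higher in place of 61.0%, and it shifted the median of all probes by -0.12; quantile normalization gave 54.8%. Leaving out 1 tumor gave 5402 to 6733 genes called, 3292 to 4128 higher and 2118 to 2715 lower. The MOAP1 difference stayed called throughout (0.81 to 1.12; 0.93 to 1.12 without 1 tumor), and RASSF1 stayed under 1.5-fold throughout (0.12 to 0.39; 0.21 to 0.25 without 1 tumor), with a limma adjusted p of 0.0115 under quantile normalization and an adjusted p of 0.0173 from the methods' t-test. No direction reversed for these results or the named genes. Replicate numbers did not pair the tumors, since deviations of same-numbered tumors correlated at 0.02, 0.04, and -0.24; with the replicate block 6166 genes were called (3818 and 2438). For these differences between settings the cause was not tested. Dim probes limit what can be read, and all 8 bounds lost their call under at least 1 alternative.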
